A study of Homo sapiens with 6 samples.

Results

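Syndecans and glypicans are the cell surface proteoglycans that carry most of the heparan sulfate of a cell, and all 10 human genes of the 2 families were examined here: the syndecans SDC1, SDC2, SDC3 and SDC4 and the glypicans GPC1, GPC2, GPC3, GPC4, GPC5 and GPC6. The members were chosen by gene name from a table of 62700 genes. RNA was sequenced from A673, an established Ewing sarcoma cell line, as 3 libraries of EWS-FLI1 wildtype parental control cells and 3 libraries of EWS-FLI1 knockout cells, all grown in DMEM with fetal bovine serum. EWS-FLI1, which joins part of EWSR1 to the DNA-binding part of FLI1, an ETS factor, is the driver of this tumour, and the comparison asks what differs once it is lost. The labels do not say how the knockout was made, whether it is 1 clone or a pool, or whether replicates were separate cultures. A difference between clones thus cannot be told apart from loss of the fusion, and the p-values rest on a spread between libraries that may be technical only.

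Both families are core proteins to which heparan sulfate chains are attached in the Golgi. Syndecans cross the membrane and end in a short cytoplasmic tail that binds PDZ proteins and the cytoskeleton, whereas glypicans are held on the outer leaflet by a glycosylphosphatidylinositol (GPI) anchor. Through their chains they bind fibroblast growth factors, Wnts, Hedgehogs, bone morphogenetic proteins, chemokines and fibronectin, and act as co-receptors, as stores of ligand or, after shedding, as soluble competitors. Glypicans are prominent in development, and GPC2 and GPC3 are studied as surface antigens of embryonal tumours.

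Regulatory sequence is shown first for the largest called rises and falls that the RefSeq promoter table allowed, because EWS-FLI1 binds the ETS core GGAA and above all runs of that core. The 250 bases before the annotated start (GRCh38.p14) are given 5′ to 3′ on the gene's strand, all on the minus strand, in lower case, with GGAA and its reverse complement TTCC in capitals. The windows lie at chr2:20225476-20225725 for SDC1, chr20:45348425-45348674 for SDC4, chr7:100177382-100177631 for GPC2 and chrX:133415490-133415739 for GPC4. SDC1 and SDC4 rose, and GPC2 and GPC4 fell.
SDC1: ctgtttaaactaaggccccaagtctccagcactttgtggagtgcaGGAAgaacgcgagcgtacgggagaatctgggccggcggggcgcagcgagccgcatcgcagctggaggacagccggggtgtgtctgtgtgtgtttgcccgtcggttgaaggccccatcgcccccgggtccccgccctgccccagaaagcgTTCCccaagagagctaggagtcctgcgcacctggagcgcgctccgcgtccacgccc
SDC4: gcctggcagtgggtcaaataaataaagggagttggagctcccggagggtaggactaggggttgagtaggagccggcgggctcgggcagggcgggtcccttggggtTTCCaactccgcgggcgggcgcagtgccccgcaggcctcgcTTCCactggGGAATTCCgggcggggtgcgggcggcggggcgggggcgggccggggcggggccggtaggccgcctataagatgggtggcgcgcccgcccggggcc
GPC2: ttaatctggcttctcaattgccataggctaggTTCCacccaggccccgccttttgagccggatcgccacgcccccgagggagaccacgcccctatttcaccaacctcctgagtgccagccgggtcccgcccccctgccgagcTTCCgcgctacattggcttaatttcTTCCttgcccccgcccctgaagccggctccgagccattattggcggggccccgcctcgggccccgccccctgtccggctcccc
GPC4: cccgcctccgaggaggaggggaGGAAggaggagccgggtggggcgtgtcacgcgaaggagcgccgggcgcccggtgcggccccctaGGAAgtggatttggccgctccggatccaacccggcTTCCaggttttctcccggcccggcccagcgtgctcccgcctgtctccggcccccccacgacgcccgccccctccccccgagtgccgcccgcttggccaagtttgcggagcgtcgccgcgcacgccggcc

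The GGAA core stood on either strand 2 times in the SDC1 window, 4 times in that of SDC4, and 3 times each in those of GPC2 and GPC4, against a median of 3 in the 35116 windows of the table, of which 92.7% held at least 1. GGAA and TTCC cannot share a base, and the adjoining pair in the run GGAATTCC of SDC4 was counted as separate matches. The repeat GGAAGGAA was in none of the 9 windows listed for 8 of the 10 members and in 3.06% of all windows. SDC4 had 8 matches to the GC box GGGCGG on either strand, overlapping ones counted separately, SDC1 had 1, GPC2 had 3 and GPC4 had 2. A GC box was present in 42.6% of all windows. GPC1, the glypican that rose, had 0 matches to GGAA and a GC content of 84.0%, against a median of 58.0% over all windows. A match is only a match of letters in this window, and binding was not measured.

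Library totals lay between 301605666 and 310465330 estimated counts in the knockout and between 324069161 and 342624492 in the parental group. Levels are library-scaled read counts (CPM) with TMM factors, and fold changes are knockout over parental on the log2 scale with the standard error (SE) from edgeR's quasi-likelihood model. Counts per gene add fusion reads to those of normal EWSR1 and FLI1, so those genes do not check the knockout: EWSR1 had a log2 fold change of -0.26 (SE 0.047) and FLI1 of 0.38 (SE 0.050, and -0.04 when scaled by total count only). All 9 markers of Ewing sarcoma cells examined were lower in knockout libraries, among them NR0B1 at -6.41 (SE 0.098) and PRKCB at -6.83 (SE 0.063). Their summed level was 1652 to 1690 CPM in parental and 276.5 to 287.1 CPM in knockout libraries. At an edgeR adjusted p under 0.05, 73.8% of the 28485 tested genes were called, 36.3% higher and 37.5% lower, so a call by itself is common in this comparison.

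All 4 syndecans rose, while of the 6 glypicans GPC1 rose, GPC2, GPC4 and GPC6 fell, GPC3 did not pass and GPC5 had too few counts to be tested. Against the background of 73.8%, 8 of 9 tested members were called, and 7 of them had a log2 fold change beyond 1 in size, as did 42.1% of all tested genes (21.8% as higher and 20.3% as lower). The groups did not overlap for 9 of the 10 members, and for 76.7% of tested genes. The median log2 fold change was 3.92 for the 4 syndecans and -1.14 for the 5 tested glypicans, beside -0.06 for all tested genes. GPC5 is in neither median.

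**Figure D1:**
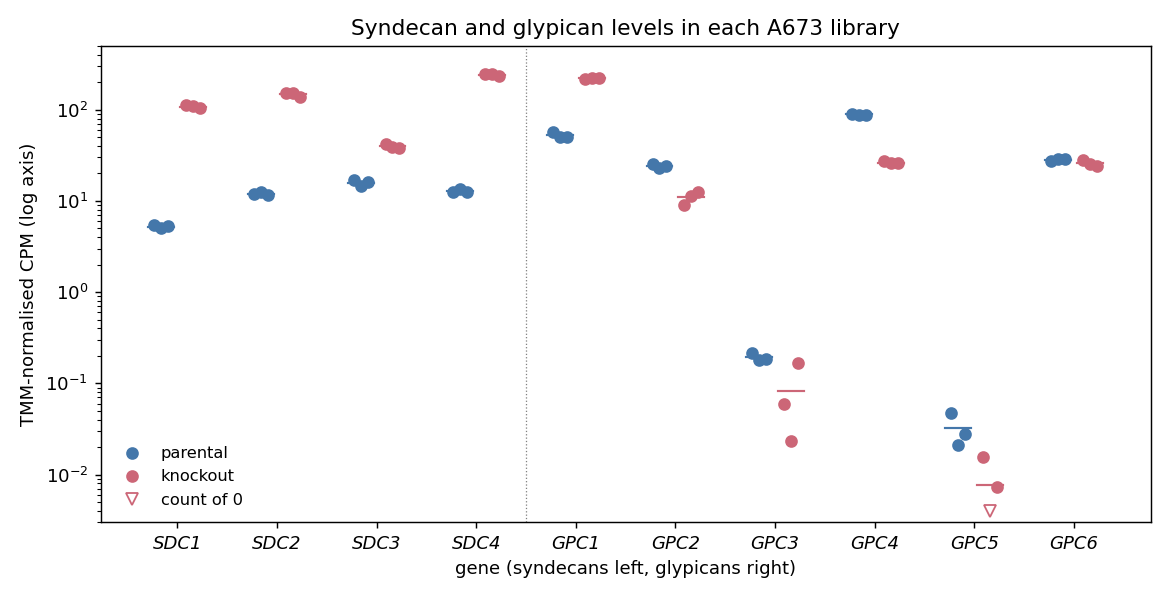
Level of each syndecan and glypican in every library, as TMM-normalised CPM on a log axis. Points are libraries (blue parental, red knockout), short lines are group means, and the open triangle marks a count of 0 in 1 knockout library for GPC5. The 4 syndecans and GPC1 sit higher in all knockout libraries, GPC2 and GPC4 sit lower, and the points of GPC6 overlap.

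SDC1, syndecan-1 or CD138, is the syndecan of epithelia and plasma cells and binds growth factors and matrix. It stood at 5.38, 5.10 and 5.24 CPM in the parental libraries and at 111 CPM, 109 CPM and 104 CPM in the knockout libraries. All knockout libraries were far above all parental ones. This 20.6-fold rise (log2 4.37, SE 0.057, edgeR adjusted p = 7.70e-25) was larger than the fold change of 95.2% of all tested genes. The epithelial markers fixed for comparison did not share this direction. EPCAM had a log2 fold change of -3.32 (SE 0.33), CDH1 of -0.59 (SE 0.28) did not pass, and KRT5, KRT14 and KRT19 had too few counts to be tested. The summed level of these 5 genes was 0.522 to 0.741 CPM in parental and 0.154 to 0.392 CPM in knockout libraries.

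SDC4, syndecan-4, is a focal adhesion proteoglycan that works beside fibronectin-binding integrins and binds protein kinase C alpha through its tail. Parental libraries held 12.4, 13.4 and 12.7 CPM, and knockout libraries held 246 CPM, 243 CPM and 232 CPM. The ranges were far apart, and SDC4 had the highest knockout level of the 10 genes per length of transcript as well as in CPM. The rise was 18.8-fold, or 4.23 on the log2 scale (SE 0.056, edgeR adjusted p = 9.81e-25). Its counts were whole to within 0.001 in all 6 libraries. By the same measure GPC4 and GPC5 had whole counts in 6 libraries, SDC1 in 2 and GPC3 in 1. SDC2, SDC3, GPC1, GPC2 and GPC6 had them in 0.

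SDC2, syndecan-2 or fibroglycan, is the syndecan of mesenchymal cells. It was at 11.9, 12.4 and 11.6 CPM in parental and at 151.4, 151.4 and 138.3 CPM in knockout libraries. Again no parental library came near a knockout one. It rose 12.3-fold, by 3.62 on the log2 scale (SE 0.057, edgeR adjusted p = 2.08e-23). Markers of fibroblasts and mesenchyme moved the same way: 5 of 5 rose, while 36.3% of all tested genes were called higher. Their summed level went from 319 to 339 CPM in parental up to 44820 to 45780 CPM in knockout libraries. Endothelial markers summed to 0.580 to 0.704 CPM and 8.43 to 9.30 CPM, and blood markers to 0.253 to 0.323 CPM and 1.64 to 2.10 CPM, while CDH5 and CD3E stayed below 0.2 CPM on average in both genotypes. Of the endothelial markers PECAM1 went from 0.151 to 8.22 CPM on average, while CLDN5 was lower, from 0.280 to 0.106 CPM. The part of other cell types in these results was not tested.

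SDC3, syndecan-3, is the large syndecan of neurons and also occurs in muscle progenitors. Levels of 16.8, 14.7 and 16.2 CPM in parental libraries stood against 42.2, 38.9 and 38.3 CPM in knockout libraries. This was the smallest of the 4 rises, with the groups still apart. On the log2 scale it came to 1.32 (SE 0.059, edgeR adjusted p = 5.18e-15), 2.50-fold, and to 0.90 with scaling by total count only.

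Among glypicans, GPC1 had the opposite direction to the rest. GPC1, glypican-1, is the widely expressed member that binds fibroblast growth factors and is raised in several carcinomas. It stood at 56.7, 50.7 and 50.8 CPM in parental and at 218 CPM, 222 CPM and 219.8 CPM in knockout libraries. The knockout libraries were almost alike and all lay above the parental ones. The difference was 4.17-fold, 2.06 on the log2 scale (SE 0.053, edgeR adjusted p = 2.20e-19). GPC1-AS1, on the opposite strand within the GPC1 locus, shares no annotated exon bases with GPC1 and had 39 to 89 counts in parental and 52 to 113 counts in knockout libraries, far below GPC1, which had at least 19141 counts in each library.

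GPC4, glypican-4, takes part in Wnt signalling and, in the brain, in synapse formation. Parental libraries held 90.0, 87.5 and 88.3 CPM, and knockout libraries 27.3, 25.7 and 25.9 CPM. It was the most abundant glypican of parental cells and was lower in every knockout library. Its fall was 3.37-fold, with a log2 value of -1.75 (SE 0.049, edgeR adjusted p = 1.09e-18), and its counts were whole in all 6 libraries.

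GPC2, glypican-2 or cerebroglycan, is found in developing neurons and in neuroblastoma and binds midkine. The parental values were 25.6, 23.0 and 24.1 CPM and the knockout values 8.91, 11.5 and 12.6 CPM. All knockout libraries were lower, but they differed among themselves by more than those of most genes. Their coefficient of variation was 17.2%, larger than that of 96.9% of tested genes within 1.5-fold of its knockout level. Its mean level was 2.20-fold lower, with a log2 value of -1.14 (SE 0.13, edgeR adjusted p = 0.000227).

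GPC6, glypican-6, stimulates Hedgehog signalling in growing bone and forms a tandem with GPC5 on chromosome 13. It was at 27.5, 28.5 and 29.2 CPM in parental and at 27.7, 25.2 and 24.3 CPM in knockout libraries. The groups overlapped, since knockout replicate 1 lay above parental replicate 1. The log2 fold change of -0.14 (SE 0.056) passed narrowly (edgeR adjusted p = 0.0294). It kept its sign in all 14 alternative settings and passed in 7 of them, with adjusted p between 3.11e-07 and 0.201. Leaving out parental replicate 2 or 3 or knockout replicate 2 or 3 ended the call (adjusted p = 0.0805, 0.138, 0.151 and 0.201). With total counts only the log2 fold change was -0.56. An antisense gene without a symbol shares 476 annotated exon bases with GPC6. It went from 0.388 to 0.130 CPM on average (log2 -1.58, SE 0.23), far below the level of GPC6.

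GPC3, glypican-3, restrains Hedgehog signalling and is silent in most adult tissues but present in liver cancer and embryonal tumours. Its level was low, with 82, 68 and 74 counts in parental and 15, 6 and 46 counts in knockout libraries. In CPM these were 0.215, 0.180 and 0.186 against 0.0587, 0.0232 and 0.167. Every knockout library was lower, and knockout replicate 3 came close to the parental ones. The log2 fold change of -1.20 (SE 0.53) did not pass (edgeR adjusted p = 0.0687). Without knockout replicate 3 it was -2.22 (edgeR adjusted p = 0.000242), and without knockout replicate 2 it was -0.75 (adjusted p = 0.0674). GPC3 and GPC4 are neighbours on the X chromosome, in the same orientation and 120.3 kb apart.

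GPC5, glypican-5, had 18, 8 and 11 counts in parental and 4, 0 and 2 counts in knockout libraries. It was lower in every knockout library, but did not reach the minimum count and was not tested. The 0 in knockout replicate 2 allows up to 0.0116 CPM (3 counts), which covers counting error only. With no filter on low counts, edgeR gave a log2 fold change of -2.05 (SE 0.79, adjusted p = 0.0215), whereas an exact permutation test of 3 against 3 libraries cannot go below p = 0.1.

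**Figure D2:**
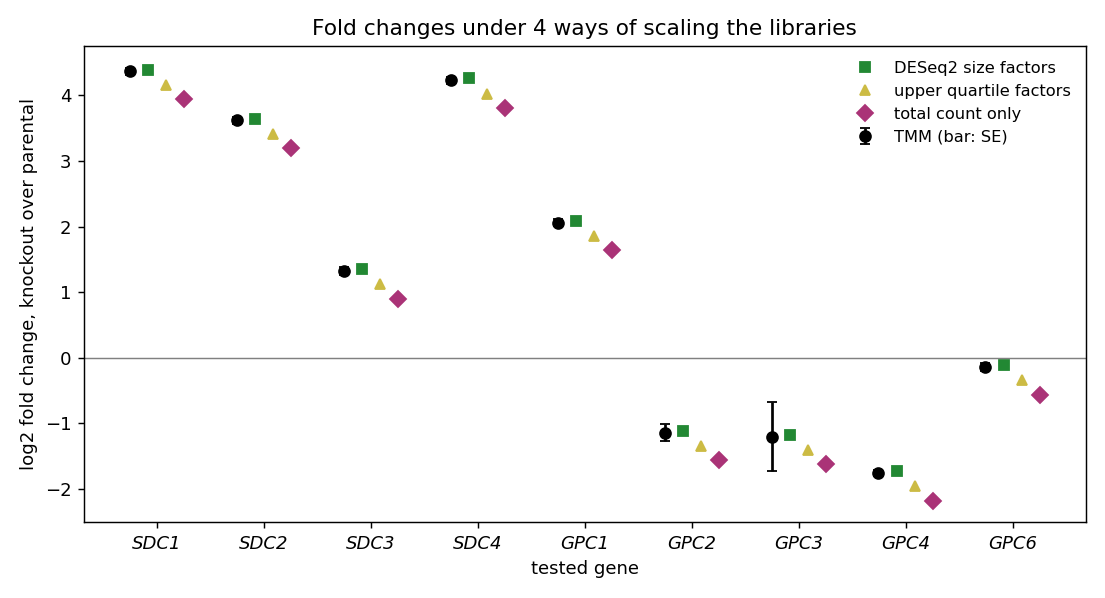
Log2 fold change of the 9 tested members under 4 scalings of the libraries. Black points are the TMM fit with SE bars, and other symbols are the same fit with DESeq2 size factors, upper quartile factors or total count only. All symbols of a gene lie on 1 side of 0, and GPC6 lies nearest to it, from -0.56 to -0.11.

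No member changed sign under any alternative that gave a value, and SDC1, SDC2, SDC3, SDC4, GPC1, GPC2 and GPC4 passed in all 14. Scaling by total count only lowered the median of all genes by 0.42 and upper quartile factors by 0.20 on the log2 scale, and the members' fold changes dropped with them: SDC1 was then at 3.94 and 4.16, and GPC4 at -2.17 and -1.96. The shift of these members was close to that of all genes. The lower genotype kept between 7.11% (SDC1) and 61.9% (GPC6) of the raw count of the higher one. The medians of the 20 lowest raw count shares kept by abundant genes were 0.586% in parental and 0.617% in knockout libraries. They come from 3251 and 3990 genes, and nearly all genes lie above them by construction. The members' shares were well above both. Of the Ewing sarcoma markers, PRKCB, from 393 to 3.46 CPM, lay near 0.617% in raw counts and may be among the genes that set it. What such low counts stem from was not tested, and the SE does not cover it.

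To compare genes with each other, levels were divided by the length of the longest annotated transcript with an APPRIS tag. In parental cells the order of CPM per kb was GPC4 at 17.9 ± 0.260, GPC1 at 14.2 ± 0.933, GPC2 at 9.57 ± 0.522, SDC4 at 4.91 ± 0.189, GPC6 at 4.39 ± 0.129, SDC2 at 3.19 ± 0.102, SDC3 at 2.49 ± 0.171 and SDC1 at 1.59 ± 0.0433 (SD, n = 3), followed by GPC3 and GPC5 below 0.1. Neighbours in this order did not overlap between libraries. In knockout cells the order was SDC4 at 92.1 ± 2.73, GPC1 at 59.3 ± 0.550, SDC2 at 39.1 ± 2.01, SDC1 at 32.8 ± 1.17, SDC3 at 6.22 ± 0.327, GPC4 at 5.31 ± 0.175, GPC2 at 4.34 ± 0.745 and GPC6 at 3.99 ± 0.272, again with GPC3 and GPC5 last. GPC2 and GPC6 overlapped there, and they changed places when all annotated exons gave the length.

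The makeup of both families differed between genotypes. Summed over the family, syndecans went from 12.2 ± 0.0907 to 170.2 ± 6.10 CPM per kb, and glypicans from 46.1 ± 1.59 to 72.9 ± 0.735 CPM per kb (SD, n = 3). Syndecan transcripts were 0.264 ± 0.00948 of glypican transcripts per length in parental and 2.33 ± 0.0980 in knockout libraries, so the more abundant family was a different one in each genotype. SDC4 made up 40.3% ± 1.38 of the syndecan sum in parental and 54.1% ± 0.339 in knockout libraries, while SDC3 went from 20.4%, with libraries between 18.7% and 21.5%, to 3.65% ± 0.125. Among glypicans GPC4 and GPC1 shared the parental sum at 38.8% ± 0.760 and 30.8% ± 0.998, and GPC1 alone held 81.3% ± 0.359 in knockout libraries, where GPC4 held 7.28% ± 0.315. These sums run over chosen genes and were not tested. Their size rests on the length used: with all annotated exons as length, GPC1 held 22.0% in parental and 73.5% in knockout libraries, and GPC4 held 48.6% and 11.5%.

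**Figure D3:**
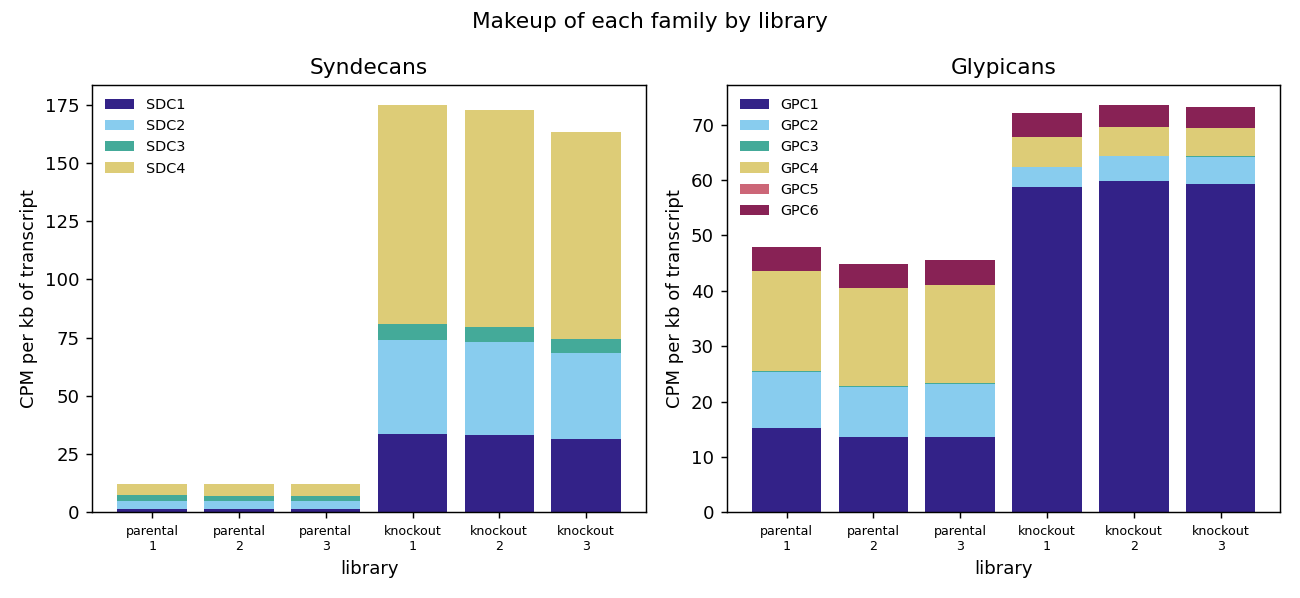
CPM per kb of transcript in each library, stacked by gene, for the 4 syndecans (left) and the 6 glypicans (right), with separate vertical axes from 0. The syndecan sum is 12.1 to 12.3 in parental and 163 to 175 in knockout libraries. In the glypican panel GPC1 fills most of each knockout bar, and GPC4, GPC1 and GPC2 share the parental bars.

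Among 10992 other named protein-coding genes of at least 5 CPM on average, those with the most similar centred log2 values over the 6 libraries were sought for the most risen and the most fallen called member. For SDC1 they were ARHGAP24, FRMD4A and FRMD5, with log2 fold changes of 4.38 (SE 0.087), 4.34 (SE 0.056) and 4.35 (SE 0.065) at Euclidean distances of 0.0547 to 0.0604. For GPC4 they were RCAN3 at -1.76 (SE 0.076), APCDD1 at -1.78 (SE 0.049) and CCND1, the cyclin D1 gene, at -1.80 (SE 0.049), at distances of 0.0713 to 0.0786. With 2 groups such likeness is mostly likeness of the fold change, and 258 and 992 genes lay within a distance of 1.

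Genes next to the members did not share a common direction with them. STAG3 begins 0.2 kb from the start of GPC2 on the other strand, and GAL3ST4 lies 0.9 kb beyond its end. Both rose where GPC2 fell, with log2 values of 0.48 (SE 0.12) for STAG3 and 1.12 (SE 0.076) for GAL3ST4. The call of STAG3 was lost with total counts only (0.06, edgeR adjusted p = 0.673). Beside SDC4, RBPJL was lower (-2.47, SE 0.21) and SYS1 higher (1.10, SE 0.050), and beside SDC1, PUM2 was lower (-0.34, SE 0.051) and LAPTM4A higher (1.07, SE 0.049). CPQ, 33.4 kb from SDC2, rose with it, at 6.13 (SE 0.091). MIR17HG, the host of a microRNA cluster that lies before GPC5, had a log2 fold change of -2.91 (SE 0.27). SLITRK5, the nearest protein-coding gene on that side of GPC5 but 3702.3 kb away, was at -2.28 (SE 0.054).

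The other genes of the pathway were taken as 7 lists of 129 genes in all, of which 120 were tested. Of these 85 were called higher and 27 lower, while 8 missed the threshold, against 36.3% called higher and 37.5% lower among all tested genes. Their median was 0.95 beside -0.06 for all tested genes. Scaled by total count only, 72 were higher and 36 lower. The lists were written with earlier results of these data in view, and nothing is called particular to them.

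Of 19 genes that supply precursors, build the linker and polymerise the chain, 12 rose and 5 fell, with a median of 0.46 (9 higher and 8 lower with total counts only). In shares this is 63.2% higher and 26.3% lower, beside 36.3% and 37.5% of all tested genes. PAPSS2, which makes the sulfate donor PAPS, rose by 4.49 (SE 0.061) from 3.56 to 79.8 CPM on average, whereas SLC26A2, a sulfate transporter, fell with a log2 value of -3.79 (SE 0.066) from 318 to 23.0 CPM. UGDH, the source of UDP-glucuronic acid, rose by 1.91 (SE 0.054). EXT1, a subunit of the chain polymerase, rose by 1.58 (SE 0.050), and EXT2, the other subunit, had a log2 fold change of 0.46 (SE 0.048) that was lost with total counts only (0.04, adjusted p = 0.308).

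Of 20 genes that modify or cut the chain, 16 were tested, 6 rose and 7 fell, with a median of -0.58. These shares, 37.5% higher and 43.8% lower, were near the 36.3% and 37.5% of all tested genes. The extracellular sulfatases, which trim sulfate from finished chains, moved apart: SULF2 rose by 6.24 (SE 0.065) from 2.71 to 204 CPM, and SULF1 fell to a log2 value of -3.50 (SE 0.090), from 12.9 to 1.14 CPM. HS3ST4, a sulfotransferase of rare sites, had a log2 fold change of -6.80 (SE 0.086), and NDST4, an N-deacetylase and N-sulfotransferase, one of -6.69 (SE 0.086). Their knockout levels were 0.287 and 0.425 CPM. In raw counts, without the TMM factors, they are close to 0.617% of parental counts, the median given above for the 20 lowest shares of abundant genes. What such low counts stem from was not tested, and the SE does not cover it.

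Of 10 other proteoglycans that can carry heparan sulfate, 8 of the 9 tested rose and 1 fell, with a median of 4.17. Over all tested genes 36.3% were higher and 37.5% lower. Whether these proteins carried heparan sulfate here was not measured. CD44, the hyaluronan receptor, had a log2 fold change of 7.89 (SE 0.073), the testican SPOCK1 one of 6.02 (SE 0.066) and the co-receptor NRP1 one of 4.17 (SE 0.056). The parental level of CD44, 4.08 CPM against 969 CPM, is in raw counts likewise near the 0.586% given above for that direction. CD44 may be among the genes that set that value.

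Of 18 tested genes of shedding and release 15 rose and 3 fell, with a median of 1.19. Over all tested genes 36.3% were called higher and 37.5% lower. Not all 15 are releasing enzymes: TIMP3, an inhibitor of metalloproteases, and THBS1, a matricellular protein, were counted among them. TIMP3 rose by 2.05 (SE 0.051). ADAM17 and ADAM10, proteases that shed syndecans, rose by 1.34 (SE 0.052) and 0.70 (SE 0.052), and the membrane metalloprotease MMP14, which cuts SDC1, by 3.19 (SE 0.053). The list's smallest p-values were those of THBS1 at 7.89 (SE 0.071), MMP2 at 6.45 (SE 0.060) and MMP15 at 4.01 (SE 0.059). FURIN and PCSK6, of the convertase family that cleaves glypicans, moved apart: FURIN rose by 1.04 (SE 0.053), and PCSK6 fell to a log2 value of -3.61 (SE 0.064), from 26.0 to 2.14 CPM. The other falls of the list were GPLD1, a phospholipase that cuts GPI anchors, at -1.06 (SE 0.13), and MMP9, from 0.455 to 0.227 CPM. NOTUM, a secreted hydrolase reported to release glypicans, stood below 0.5 CPM on average in both genotypes, and its rise of 0.77 (SE 0.22) was lost with total counts only (0.35, adjusted p = 0.188). Of 9 genes that attach or remodel the GPI anchor 4 rose and 5 fell, with a median of -0.23. Here the shares were 44.4% and 55.6%, beside the same 36.3% and 37.5%. The smallest p-values were those of PIGT at 1.35 (SE 0.048), PIGK at 1.25 (SE 0.060) and PGAP6 at 0.80 (SE 0.053), which rose, and the falls ran from -0.74 (SE 0.066) for PGAP1 to -0.23 (SE 0.062) for PGAP3.

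Of 20 partners of syndecans in the membrane and cytoplasm 18 rose and 1 fell, with a median of 1.14 (15 higher and 3 lower with total counts only). Among all tested genes 36.3% were called higher and 37.5% lower. PRKCA, the kinase bound by syndecan-4, rose by 4.95 (SE 0.066) from 5.59 to 173 CPM, the integrin subunit ITGAV by 4.09 (SE 0.062), and the tail-binding proteins SDCBP (syntenin) and CASK by 0.71 (SE 0.051) and 1.09 (SE 0.056). TIAM1, a Rac activator that binds syndecan-1, had a log2 fold change of -6.39 (SE 0.086), the single fall of the list, to 0.449 CPM.

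Of 32 heparin-binding ligands and glypican partners, 29 were tested, 22 rose and 5 fell, with a median of 1.25. That makes 75.9% higher and 17.2% lower, beside 36.3% and 37.5% of all tested genes. The smallest p-values were those of BMP4 at 7.97 (SE 0.068), the chemokine CXCL12 at 7.90 (SE 0.069) and HHIP, a Hedgehog-binding antagonist, at 7.14 (SE 0.075), all with a parental mean below 3 CPM. In raw counts BMP4 and CXCL12 kept, as did THBS1, a parental share near the 0.586% given above, and they may be among the genes that set it. What such low counts stem from was not tested. MDK, the midkine that GPC2 binds, was abundant in both genotypes at 476 and 537 CPM on average, with a log2 fold change of 0.17 (SE 0.055) that became -0.25 with total counts only and -0.03 with upper quartile factors. SHH and IHH, Hedgehog ligands, were at or below 0.03 CPM on average in both genotypes.

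**Figure D4:**
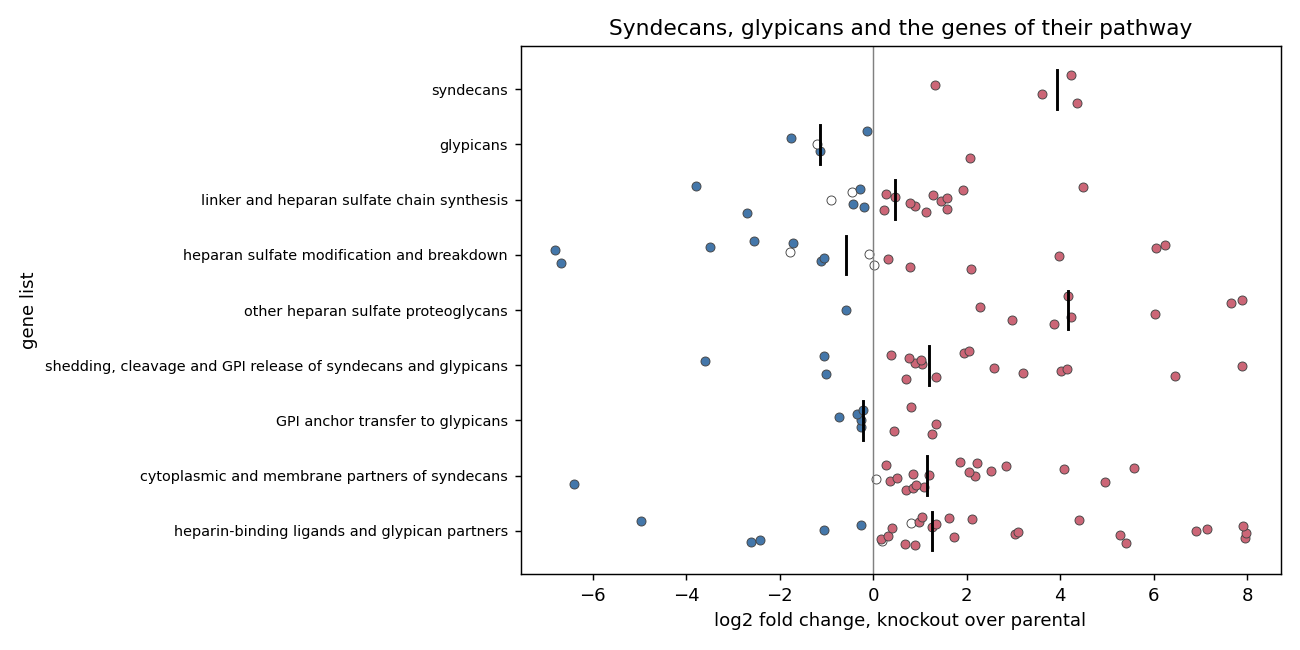
Log2 fold change (knockout over parental) of every tested syndecan, glypican and pathway gene, 1 row per list. Red points were called higher, blue points lower, white points did not pass, and the black bar is the median of the row. Partners of syndecans lie mostly to the right of 0 with TIAM1 far to the left, and genes of chain modification spread to both sides.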

How the data were processed

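The samples were 6 RNA libraries of the cell line A673, 3 parental and 3 EWS-FLI1 knockout, made from oligo-dT enriched RNA with a NEBNext Ultra II kit, per the labels' protocols, which do not state strand. The authors deposited estimated counts per gene, and kallisto 0.48.0 and hg38 are named per the submitters' processing notes. No source used here gives the summing of transcripts to genes.

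Estimated counts were rounded and tested with edgeR 4.0.16 in R 4.3.3: filterByExpr (minimum count 10, minimum total 15), TMM factors, a robust quasi-likelihood fit with genotype as its only term, two-sided tests and Benjamini-Hochberg adjustment over 28485 genes at 0.05. The SE is the log2 fold change divided by the square root of F. The same steps were tested on simulated data. A count of 3 equals 0.00752 to 0.0117 CPM in a library. No pair of replicates agreed within sampling noise (chi-square per degree of freedom at least 11.1).

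Named genes were the members, EWSR1 and FLI1, the 3 smallest p-values of each list and known partners or processing enzymes of members, the 3 genes most like the most risen and fallen member, and neighbours, for which the nearest protein-coding gene in GENCODE 29 (GRCh38) was used. MIR17HG was added after values were seen. Members and lists were chosen with earlier results of these data known. Alternatives were DESeq2 1.42.0 (size factors, Wald test), total count, upper quartile, other filters, limma 3.58.1 voom, a replicate term, leaving out each library, and exon union lengths (chosen after seeing the data). No protein sequences were used here.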

Additional observations from a re-analysis of the deposited data

How the results depend on the processing

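The 8 members with a call in the reported fit and GPC3 kept their sign under every alternative run. With total counts only, the median of all genes moved by -0.42, and calls were 7370 higher and 14949 lower, so that 33.0% of calls were higher in place of 49.1%. With upper quartile factors 40.5% were. Under total counts the summed CPM were 53.2 and 462 for syndecans and 225 and 245 for glypicans (parental and knockout), in place of 45.9, 535.5, 194 and 283. A filter at a mean of 1 CPM tested fewer genes and called 6371 higher and 6672 lower, in place of 10328 and 10687, and left GPC3 without a value. With no filter 5 members were called lower.

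GPC6 lost its call with DESeq2 size factors (-0.11, adjusted p = 0.0781), the DESeq2 Wald test (-0.11, adjusted p = 0.103) and the replicate block (-0.14, adjusted p = 0.056), and lay between -0.181 and -0.084 without single libraries. GPC3 passed with total counts (-1.61, adjusted p = 0.0179), upper quartile factors (-1.40, adjusted p = 0.0355), no filter (-1.22, adjusted p = 0.000135), the DESeq2 Wald test (-1.19, adjusted p = 0.0212), limma-voom (-1.59, adjusted p = 0.00674) and the replicate block (-1.41, adjusted p = 0.0189), and ranged from -2.22 to -0.75 without single libraries. The cause was not tested. Members called lower numbered 2 to 4 without single libraries.

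With exon union lengths the shares in parental and knockout libraries were 43.6% and 57.5% for SDC4, 22.0% and 73.5% for GPC1 and 48.6% and 11.5% for GPC4, and 3.51% for SDC3 in knockout libraries. Same-numbered libraries did not deviate together (correlations of -0.255, -0.0595 and 0.0323), and differently numbered ones ran from -0.257 to 0.241. These values cannot decide whether a number marks a shared batch, which the labels do not state. Apart from GPC6 and GPC3, the replicate block changed no member's call. GPC3 and GPC5 rest on 82 counts or fewer in each library.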
